A study of Rattus norvegicus with 30 samples.

Results

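A set of 8 interferon-responsive genes was followed in cultured rat liver cells exposed to phenobarbital. They were Rsad2 and Isg15, which encode antiviral effectors, Cxcl9, a chemokine, Psmb8, Psmb9 and Psmb10, the catalytic subunits of the immunoproteasome, and Irf1 and Irf7, transcription factors of the interferon response. The members were all probe sets annotated to 1 of these symbols alone, 9 probe sets for 8 genes. Without controls the array held 31042 probe sets, of which 20826 carried 1 symbol alone, for 14217 genes. Cxcl9 had 2 probe sets and was counted by the one with the higher mean. The cells were cryopreserved primary hepatocytes of male Sprague Dawley rats, kept on collagen under Matrigel and dosed on day 3 of culture. They received vehicle, 300 µM or 3000 µM phenobarbital, a barbiturate that induces drug-metabolising enzymes in liver, and RNA was taken 24 h or 48 h later. This made 6 groups of 5 wells, with 1 array per well. The labels describe the vehicle as water in one field and culture medium in another, describe the 5 wells of a group as separate cultures, and name no donor animal, so the spread between wells says nothing about the spread between animals.

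Interferons bind receptors at the cell surface and act through JAK kinases and STAT proteins. Type I interferons act mainly through interferon-stimulated response elements in the promoters of their target genes, and interferon gamma mainly through gamma-activated sequences. In the proteasome, the products of Psmb8, Psmb9 and Psmb10 can take the places of the constitutive catalytic subunits made by Psmb5, Psmb6 and Psmb7, which changes the peptides made for class I antigen presentation. Hepatocytes carry both kinds of interferon receptor and can respond to both.

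RefSeq promoter sequences of assembly GRCr8 were matched for 7 of the 8 genes and are shown because members that moved in the same or in opposite directions can then be read side by side. The 250 bases before the annotated start were searched on both strands for a pair of GAAA blocks separated by any 2 bases, the core of an interferon-stimulated response element, and for TTCNNNGAA, a gamma-activated sequence, whose letters read alike on both strands. The first was found in 3 of the members (Rsad2, Psmb10 and Irf7) and in 3.41% of 33469 promoters. The second was found in 2 members (Psmb8 and Irf1) and in 7.67% of promoters. In the stretches below, written 5′ to 3′ along each gene, capitals mark the matches.
Rsad2, chr6:48788238-48788287, minus strand: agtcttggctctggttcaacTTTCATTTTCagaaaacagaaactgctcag
Irf7, chr1:205800063-205800112, minus strand: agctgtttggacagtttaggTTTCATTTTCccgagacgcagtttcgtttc
Psmb10, chr19:50743293-50743385, minus strand: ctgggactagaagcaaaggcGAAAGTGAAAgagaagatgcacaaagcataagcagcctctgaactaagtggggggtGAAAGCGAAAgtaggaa
Psmb8, chr20:4657248-4657281, minus strand: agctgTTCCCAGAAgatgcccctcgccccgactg
Irf1, chr10:38417773-38417821, plus strand: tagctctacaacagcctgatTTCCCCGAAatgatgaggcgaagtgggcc
Rsad2 and Irf7 held the same 10 bases, TTTCATTTTC, and Psmb10 held the motif at 2 places. The search fixes all but 2 letters of each 10-base match, so those of Rsad2 and Irf7 could differ at 2 places alone. In the windows of Psmb9 and Cxcl9 neither set of letters occurred. A match describes the letters only, and the array does not measure binding.

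At 3000 µM phenobarbital the 8 genes split. Rsad2, Cxcl9, Psmb8, Psmb9 and Psmb10 rose at both times, Isg15 and Irf7 fell at both times, and Irf1 did not pass the test at either. Thus 5 of the 8 genes were higher and 2 lower at 24 h and again at 48 h, by an adjusted p under 0.05 in limma over all probe sets tested. Across the array 17.3% of probe sets were higher and 14.8% lower at 24 h, and 19.5% higher and 19.9% lower at 48 h. The median log2 change of the 8 genes was 0.59 at 24 h and 0.84 at 48 h, against 0.009 and -0.001 over all 16596 probe sets tested. The 8 genes were chosen with earlier results of these data known, so the counts and medians describe the set without testing it. At 300 µM Cxcl9 was the 1 gene higher at 24 h (1.72% of probe sets were higher and 1.27% lower), and at 48 h Cxcl9 was higher and Isg15 lower (0.813% and 0.723%). All 9 member probe sets passed the filter on low signal. The counts against vehicle were the same without the 2 arrays that stood apart, described next.

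**Figure D1:**
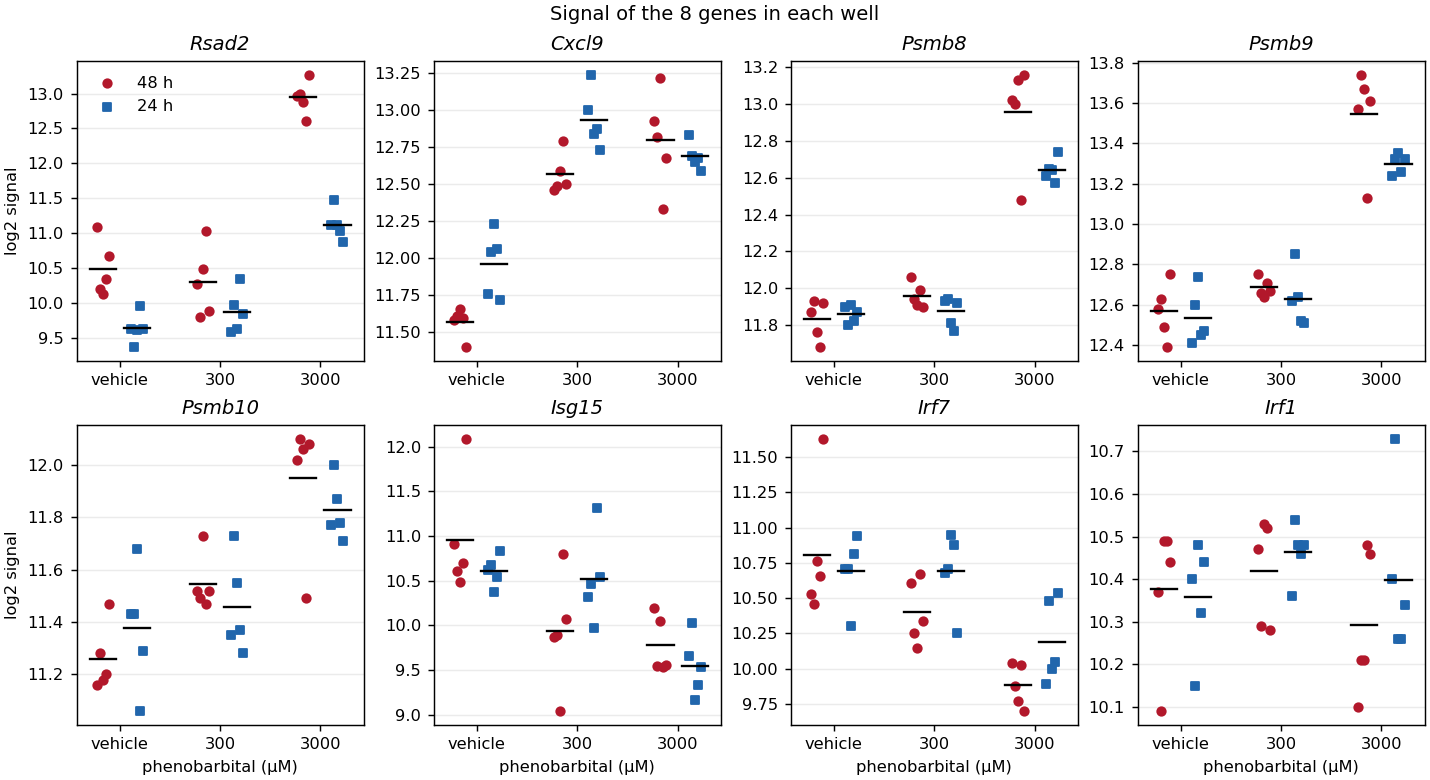
Log2 signal of the 8 genes (vertical axes, one scale per gene) in each well by phenobarbital dose, with 48 h wells as red circles, 24 h wells as blue squares and bars at group means of 5 wells. Rsad2 and the proteasome subunits are high at 3000 µM, Cxcl9 is high at both doses, and Isg15 and Irf7 are low at 3000 µM with 1 high vehicle well at 48 h.

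**Figure D2:**
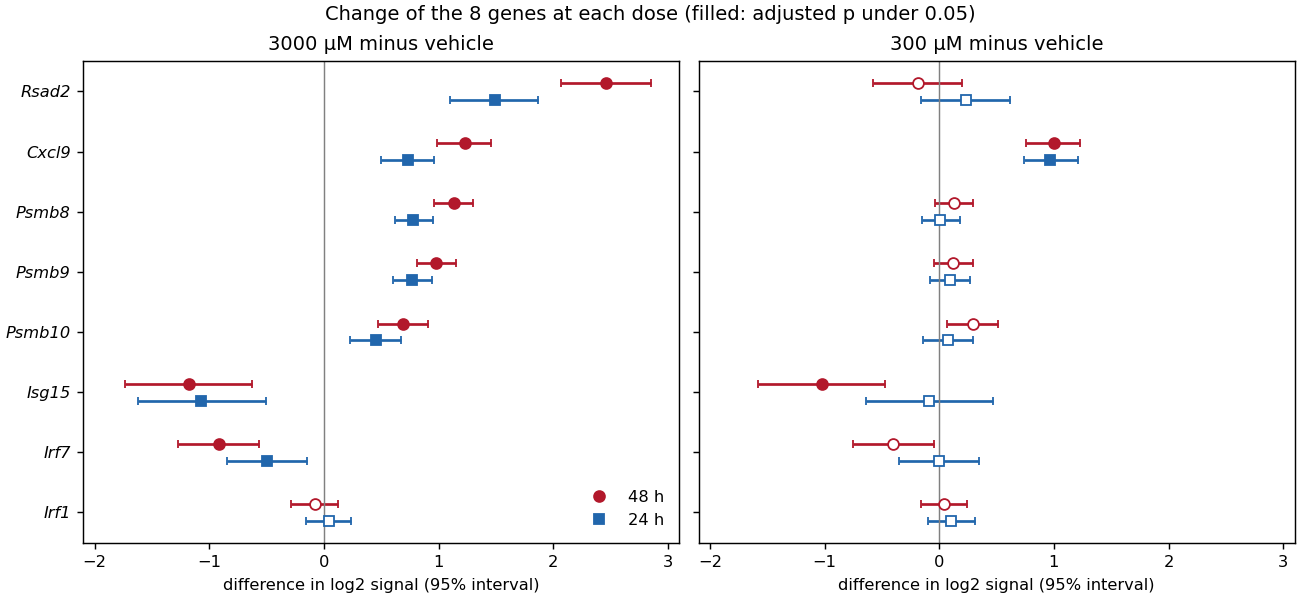
Difference in log2 signal from vehicle at 3000 µM (left) and 300 µM (right), with 95% intervals from the limma fit, for 48 h (red circles) and 24 h (blue squares). Filled symbols passed the test, and the largest change is that of Rsad2 at 3000 µM and 48 h, 2.46.

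Both arrays that stood apart did so in their hybridization controls, with mean log2 signals of 14.57 in well 4 of the 3000 µM group at 48 h and 14.14 in well 1 of the vehicle group at 24 h, against at most 13.35 on the other arrays. Array medians lay between 348.7 and 424.9 across the 30 arrays. All 9 hepatocyte markers with a probe set of their own passed the filter. Their summed signal was 442100 to 473500 at 3000 µM against 527500 to 689500 in vehicle at 24 h, without overlap, and 415900 to 704900 against 464100 to 540400 at 48 h, with overlap. At 24 h the 300 µM wells held 441200 to 526800, also below all vehicle wells. None of the 9 hepatocyte markers passed the limma test in that comparison. Of 11 lymphocyte markers, Cd4 alone passed the filter. The summed lymphocyte signal lay between 1196 and 1664 at 3000 µM and between 1272 and 1800 in vehicle wells at 48 h. In bulk RNA, fewer cells of a type and less RNA per cell cannot be told apart.

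Rsad2, which encodes viperin, a radical SAM enzyme that makes a chain-terminating nucleotide against viruses, changed most among the 8 genes at 3000 µM. At 24 h its signal was 2233, 2845, 2219, 2095 and 1890 in the 3000 µM wells, against 792.4, 662.8, 784.7, 996.5 and 790.4 in vehicle wells. The 48 h wells held 7990, 8218, 7553, 6235 and 9870 at 3000 µM, against 2180, 1177, 1118, 1304 and 1635 in vehicle. The groups did not overlap at either time. The fold was 2.8 at 24 h (log2 change 1.49 ± 0.19 SE, adjusted p = 2.46e-07) and 5.49 at 48 h (2.46 ± 0.19 SE, adjusted p = 5.7e-12). Wells at 300 µM held 766.5 to 1295 at 24 h and 888.8 to 2090 at 48 h, which overlapped vehicle at both times (adjusted p = 0.651 and 0.786).

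Rsad2 also differed with time. Vehicle wells were 1.8-fold higher at 48 h than at 24 h (adjusted p = 0.00445), and 3000 µM wells 3.53-fold higher (adjusted p = 3.65e-08). Of the 8 genes, Rsad2 was the 1 that was higher with time in vehicle, where Cxcl9 was the 1 that was lower, against 4.05% and 3.15% of probe sets. The 3000 µM effect was larger at 48 h than at 24 h by 0.97 ± 0.269 SE on the log2 scale (adjusted p = 0.0359). Among the members only this difference passed by the main settings, where 1.38% of probe sets passed in that direction and 2.77% in the other. Without well 4 of the 3000 µM group at 48 h, those of Psmb8 (0.47, adjusted p = 0.000841) and Cxcl9 (0.62, adjusted p = 0.0108) passed as well. With all wells, quantile normalization also called Psmb8 and Cxcl9 (0.40 and 0.54, adjusted p = 0.0369 and 0.044), and array weights called both (0.43 and 0.63, adjusted p = 0.00504 and 0.0117) but not Rsad2 (adjusted p = 0.0533). That call was lost in 15 of 30 alternative fits, with adjusted p up to 0.0976. Leaving out 1 well did so for vehicle well 1, 3 or 4 and 3000 µM well 1, 3, 4 or 5 at 24 h, and for vehicle well 2, 3 or 4 and 3000 µM well 5 at 48 h. The difference stayed between 0.88 and 1.12 throughout.

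Isg15 encodes a ubiquitin-like protein that is attached to other proteins in interferon-treated cells. At 24 h its signal was 806.4, 1043, 573.8, 643.7 and 739.3 in the 3000 µM wells, against 1573, 1636, 1325, 1491 and 1815 in vehicle wells. After 48 h it was 1167, 751.5, 1057, 738.7 and 754.8 at 3000 µM, against 1920, 1565, 1424, 1666 and 4368 in vehicle. Every 3000 µM well was below every vehicle well of its time, and vehicle well 5 at 48 h was far above the others. The log2 change was -1.07 ± 0.271 SE at 24 h (0.478-fold, adjusted p = 0.0027) and -1.18 ± 0.271 SE at 48 h (0.441-fold, adjusted p = 0.000722). Without vehicle well 5 the change at 48 h was -0.90 (adjusted p = 0.00367).

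At 300 µM and 48 h the Isg15 signal was 936.5, 951, 527.4, 1782 and 1073, against the vehicle wells just given, which it overlapped. The log2 change of -1.02 ± 0.271 SE passed at an adjusted p of 0.0479. It missed the threshold in 12 of 20 alternative fits, with adjusted p between 0.0102 and 0.183 over all of them, and was -0.74 (adjusted p = 0.161) without vehicle well 5. Leaving out vehicle well 1 or 4, or 300 µM well 1, 2, 3 or 5, also ended the call, with changes from -1.09 to -0.80. At 24 h the 300 µM wells held 1005 to 2547 and did not differ by the test (log2 change -0.09, adjusted p = 0.94).

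Cxcl9, a chemokine that draws T cells through the receptor CXCR3, was the member that rose at the lower dose. At 24 h its signal was 8189, 9653, 7326, 7495 and 6804 in the 300 µM wells, against 3473, 4199, 4794, 4273 and 3371 in vehicle wells. Wells at 48 h held 5647, 5740, 6158, 7060 and 5782 at 300 µM, against 3058, 3126, 3238, 3098 and 2701 in vehicle. No well overlapped at either time. The fold was 1.97 at 24 h (adjusted p = 1.1e-06) and 1.99 at 48 h (adjusted p = 6.3e-07), and the second probe set gave 2.07 and 2.1.

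At 3000 µM the Cxcl9 signal was 7270, 6622, 6428, 6576 and 6154 at 24 h and 7802, 7221, 9561, 5132 and 6555 at 48 h, all above the vehicle wells of the same time. The fold over vehicle was 1.66 (log2 change 0.73 ± 0.114 SE, adjusted p = 6.04e-06) and 2.34 (1.23 ± 0.114 SE, adjusted p = 2.1e-10). By the main settings the doses did not differ by the test at either time. The 3000 µM wells differed from the 300 µM wells by -0.25 at 24 h, with a 95% interval of -0.48 to -0.02, and by 0.23 at 48 h, with an interval of 0 to 0.46 (adjusted p = 0.112 and 0.119). The 24 h difference passed in 3 of 20 alternative fits. Those used array weights, left out the 2 arrays that stood apart, or took the compared groups alone (adjusted p = 0.032, 0.0482 and 0.0239). The second probe set passed in the 24 h comparison (log2 change -0.25, adjusted p = 0.0393) and lost this call in 9 of 20 alternative fits, 6 of which leave out 300 µM well 2 or 4 or 3000 µM well 2, 3, 4 or 5. At 48 h the difference was 0.35 and passed without well 4 of the 3000 µM group (adjusted p = 0.00798). It also passed without the 2 arrays that stood apart (0.35, adjusted p = 0.00685) and with array weights (0.36, adjusted p = 0.0103).

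In vehicle wells Cxcl9 was lower at 48 h than at 24 h, with log2 changes of -0.39 and -0.38 for its first and second probe sets (adjusted p = 0.0299 and 0.00588). For the first the call was lost in 8 of 20 alternative fits, with adjusted p up to 0.11, 6 of which leave out 1 well: 48 h well 1, 4 or 5, or 24 h well 2, 3 or 4. The second kept its call in all 20.

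Psmb8 encodes the subunit that takes the place of Psmb5. Its signal was 6265, 6418, 6388, 6097 and 6846 in 3000 µM wells at 24 h, against 3825, 3564, 3856, 3615 and 3737 in vehicle. The 48 h values were 8333, 8189, 8960, 5702 and 9182 at 3000 µM, against 3731, 3891, 3479, 3279 and 3873 in vehicle. The groups did not overlap, and well 4 at 48 h was the lowest of its group. The fold was 1.72 at 24 h (log2 change 0.78 ± 0.0821 SE, adjusted p = 3.84e-09) and 2.19 at 48 h (1.13 ± 0.0821 SE, adjusted p = 6.45e-13).

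The product of Psmb9 replaces that of Psmb6. Its signal was 9707, 10250, 10460, 9823 and 10250 in 3000 µM wells at 24 h, against 5426, 6198, 6841, 5604 and 5666 in vehicle. By 48 h it was 12200, 13680, 13070, 8972 and 12480 at 3000 µM, against 6117, 6327, 5744, 5358 and 6912 in vehicle. Again the groups did not overlap and well 4 was the lowest. The fold was 1.7 (log2 change 0.77 ± 0.0841 SE, adjusted p = 8.9e-09) and 1.97 (0.98 ± 0.0841 SE, adjusted p = 2.86e-11).

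Psmb10, whose product replaces Psmb7, changed least of the 3 subunits. Its signal was 3491, 4084, 3751, 3522 and 3343 in 3000 µM wells at 24 h, against 2762, 2757, 3287, 2130 and 2496 in vehicle. For 48 h it was 4142, 4380, 4263, 2869 and 4338 at 3000 µM, against 2286, 2490, 2326, 2346 and 2828 in vehicle. All 3000 µM wells lay above the vehicle wells of their time, well 4 at 48 h by little. The fold was 1.36 (log2 change 0.45 ± 0.107 SE, adjusted p = 0.00132) and 1.61 (0.69 ± 0.107 SE, adjusted p = 3.13e-06).

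At 300 µM none of the 3 subunits passed the test. Log2 changes were 0.01, 0.09 and 0.08 for Psmb8, Psmb9 and Psmb10 at 24 h, and 0.13, 0.12 and 0.29 at 48 h, where the 300 µM wells of Psmb10 lay just above all vehicle wells (2839 to 3389 against 2286 to 2828, adjusted p = 0.21). In 3000 µM wells Psmb8 was higher at 48 h than at 24 h by 0.32 (adjusted p = 0.00777) and Psmb9 by 0.24 (adjusted p = 0.0482). With Rsad2 these made 3 of the 8 genes higher and none lower, against 6.42% and 7.53% of probe sets. With array medians centred the gains were 0.24 and 0.17 and neither passed (adjusted p = 0.148 and 0.319), and the call of Psmb9 was lost in 13 of 20 alternative fits, 9 of which leave out 1 well, any but well 4 at 48 h. Well 4 of the 3000 µM group at 48 h was low in all 3 subunits, and without it their changes from vehicle were 1.25, 1.08 and 0.81.

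Each constitutive counterpart was read by its probe set with the highest mean. At 3000 µM these had smaller fitted changes than the subunits that replace them. Psmb5, counterpart of Psmb8, held 29450 to 33760 in 3000 µM wells at 24 h against 26450 to 29810 in vehicle, and rose by 0.19 (adjusted p = 0.00733). Later, at 48 h, it held 30370 to 38480 at 3000 µM against 23970 to 25610 in vehicle and rose by 0.44 (adjusted p = 3.76e-08). It also rose at 300 µM and 48 h, by 0.26 (adjusted p = 0.00453). Psmb7, counterpart of Psmb10, rose by 0.34 at 3000 µM and 48 h (adjusted p = 3.44e-05) while its change of 0.11 at 24 h did not pass (adjusted p = 0.191). Psmb6 shares its probe set with another symbol and was not analysed here.

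Each well's log2 signal of an immunoproteasome subunit minus that of its counterpart gives a within-array measure of unequal change, compared by exact permutation tests over wells with adjustment over 12 tests and a smallest possible p of 0.00794. Psmb8 minus Psmb5 averaged -2.31 ± 0.114 in 3000 µM wells at 24 h and -2.91 ± 0.0796 in vehicle (SD, n = 5 each), a difference of 0.60 (exact permutation test, adjusted p = 0.0238). By 48 h it averaged -2.09 ± 0.41 at 3000 µM and -2.77 ± 0.115 in vehicle, a difference of 0.68 that missed the threshold (exact adjusted p = 0.0543). Without well 4 of the 3000 µM group that difference was 0.85 and passed (exact adjusted p = 0.0159). Against 300 µM, Psmb8 minus Psmb5 was higher at 3000 µM by 0.69 at 24 h and 0.82 at 48 h (exact adjusted p = 0.0238 for both). With the mean of all tested probe sets per gene these were 0.53 and 0.76 and did not pass (exact adjusted p = 0.0571 and 0.0952). At 300 µM against vehicle Psmb8 minus Psmb5 differed by -0.09 and -0.14 (exact adjusted p = 0.228 and 0.0834). Without vehicle well 4 the 48 h difference was -0.19 and passed (exact adjusted p = 0.0191).

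Psmb10 minus Psmb7 was higher by 0.34 at 3000 µM and 24 h (-2.07 ± 0.111 against -2.41 ± 0.193 in vehicle, SD, n = 5 each, exact adjusted p = 0.0476). At 48 h the difference of 0.35 did not pass with all wells (exact adjusted p = 0.137) and was 0.52 without well 4 (exact adjusted p = 0.0159). At 300 µM and 48 h the difference was 0.21 (exact adjusted p = 0.0476). Leaving out vehicle well 1, 2, 3 or 4 or 300 µM well 1, 2 or 3 there, or 3000 µM well 1, 2 or 3 or vehicle well 4 in the 24 h comparison at 3000 µM, ended the call, with differences of 0.16 to 0.22 and 0.29 to 0.34. Against 300 µM the difference was 0.36 at 24 h (exact adjusted p = 0.0238) and 0.13 at 48 h (exact adjusted p = 0.58), or 0.30 without well 4 (exact adjusted p = 0.0423).

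**Figure D3:**
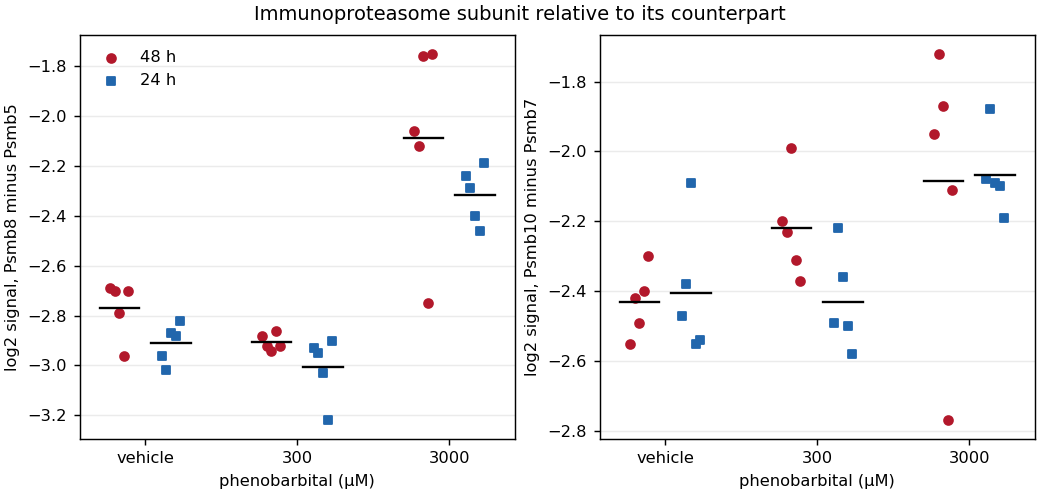
Log2 signal of Psmb8 minus Psmb5 (left) and of Psmb10 minus Psmb7 (right) in each well by dose, with 48 h wells as red circles, 24 h wells as blue squares and bars at group means. At 3000 µM and 24 h the means are -2.31 and -2.07, and 1 well at 3000 µM and 48 h lies far below its group in both panels.

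Irf7, a transcription factor that amplifies type I interferon production and is itself induced by interferon, fell at 3000 µM. At 24 h its signal was 950.4, 1432, 1025, 1060 and 1493 in 3000 µM wells, against 1672, 1672, 1263, 1797 and 1968 in vehicle. The values at 48 h were 1052, 941.8, 870.2, 1046 and 834.3 at 3000 µM, against 1481, 1406, 1736, 1615 and 3165 in vehicle. The groups overlapped at 24 h and not at 48 h, and the same vehicle well 5 that was high in Isg15 was high here. The log2 change was -0.50 ± 0.172 SE (0.707-fold, adjusted p = 0.0241) at 24 h and -0.92 ± 0.172 SE (0.527-fold, adjusted p = 5.14e-05) at 48 h. Leaving out 3000 µM well 1, 3 or 4 or vehicle well 4 or 5 ended the call at 24 h, with changes of -0.47 to -0.42 and adjusted p up to 0.0755. Without vehicle well 5 the change at 48 h was -0.72 (adjusted p = 0.000207).

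Against 300 µM, Irf7 was lower at 3000 µM, with log2 changes of -0.50 at 24 h and -0.52 at 48 h (adjusted p = 0.0293 and 0.0171). The 24 h call was lost in 8 of 20 alternative fits and the 48 h call in 1, without 300 µM well 4 (-0.46, adjusted p = 0.0529). Of the 24 h losses 6 leave out 1 well, namely 3000 µM well 1, 3 or 4 or 300 µM well 2, 3 or 4, with changes of -0.49 to -0.42. At 300 µM against vehicle Irf7 changed by 0 at 24 h and -0.40 at 48 h (adjusted p = 0.998 and 0.316). The promoter stretches above show the same 10-base match, with all but 2 letters set by the search, in Irf7, which fell, and in Rsad2, which rose.

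Irf1, a transcription factor induced quickly by interferon gamma, stayed within its spread. Its signal ran from 1222 to 1702 in 3000 µM wells at 24 h against 1137 to 1427 in vehicle, and from 1099 to 1427 at 48 h against 1093 to 1438 in vehicle. The largest of its 4 differences from vehicle was 0.10, with a 95% interval of -0.10 to 0.31, and all 4 intervals lay between -0.29 and 0.31. It passed in none of the comparisons made, in the main fit or any alternative.

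Comparing the doses directly, 4 of the 8 genes were higher at 3000 µM than at 300 µM and 2 lower at 24 h (13.9% and 12.2% of probe sets), and 4 were higher and 1 lower at 48 h (17.9% and 16.9%). Rsad2, Psmb8, Psmb9 and Psmb10 made up the higher ones at both times. Rsad2 was 2.39-fold and 6.27-fold higher, and Psmb8 1.7-fold and 2-fold. Isg15 was lower at 24 h (log2 change -0.98, adjusted p = 0.00688), while at 48 h its wells at 3000 µM and 300 µM overlapped (log2 change -0.16, adjusted p = 0.696). These comparisons share the 3000 µM wells with the comparisons against vehicle. Counted by 1 probe set each, none of the 8 genes passed between 48 h and 24 h at 300 µM by the main settings, where 5.19% of probe sets did. The second probe set of Cxcl9 did pass there (log2 change -0.36, adjusted p = 0.0125), except without 300 µM well 1 at 48 h or well 2 at 24 h, while the first had -0.37 (adjusted p = 0.0505) and passed in 9 of 20 alternative fits, with adjusted p between 0.011 and 0.195. None of the differences between the 300 µM effects at the 2 times passed, as for all probe sets (0 called, 1251 at an unadjusted p under 0.05).

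Other genes of the pathway moved in both directions. Of 53 interferon-stimulated effectors listed, 38 were tested, and at 3000 µM 3 rose and 9 fell at 24 h, and 4 rose and 11 fell at 48 h. Over all probe sets 17.3% rose and 14.8% fell at 24 h, and 19.5% and 19.9% at 48 h. The effectors' median log2 change was -0.12 and -0.06, against 0.009 and -0.001 over all probe sets. Cmpk2, a mitochondrial nucleotide kinase and the neighbour of Rsad2 in GRCr8, rose by 1.59 at 24 h (adjusted p = 3.16e-08) and 1.12 at 48 h (adjusted p = 9.47e-06). Herc6, an enzyme that attaches Isg15 in mice, rose by 0.85 at 24 h. Gbp2, a guanylate-binding GTPase, was called at 48 h but reached the filter of 8.58 in 1 group alone, with a mean log2 signal of 8.97 at 3000 µM and 48 h against 8.18 in vehicle.

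Among the effectors that fell, Rtp4, a receptor transporter protein, changed by -0.61 and -1.05, and Mx2, an antiviral dynamin-like GTPase, by -0.76 and -0.94 at 24 h and 48 h. Dtx3l, a ubiquitin ligase, changed by -0.44 and -0.79. Tnfsf10, the death ligand TRAIL, was called lower at both times but reached the filter in vehicle alone, with mean log2 signals of 7.71 at 3000 µM against 8.64 in vehicle at 24 h and 7.59 against 8.63 at 48 h. At 300 µM Ifi27l2b alone passed among the 38, at 24 h (-0.22, adjusted p = 0.0415), and none did at 48 h.

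Signalling components followed no single direction. Of 18 tested sensors, receptors and transcription factors, 1 rose and 2 fell at 3000 µM and 24 h, and 3 rose and 6 fell at 48 h. Among all probe sets 17.3% rose and 14.8% fell at 24 h, and 19.5% and 19.9% at 48 h. With array medians centred none of the 18 fell at 24 h. Stat2 rose by 0.44 and 0.63 (adjusted p = 0.00181 and 1.73e-05), and Irf2, which can oppose Irf1, by 0.71 at 48 h. Ifih1, a sensor of double-stranded RNA, fell by 0.72 at 48 h (log2 change -0.72), and Irf9, Ifnar2 and Ifngr1 changed by -0.41, -0.39 and -0.31 there.

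The interferons with a probe set of their own were dim. The listed interferon alpha and lambda genes had none and were not read. Ifnb1 and Ifng did not reach the filter of 8.58 in any group, with mean log2 signals of 5.03 and 5.06 at 3000 µM and 48 h against 5.16 and 5.44 in vehicle. Il18, a cytokine that promotes interferon gamma production, rose at 3000 µM by 0.38 at 24 h and 0.91 at 48 h (adjusted p = 0.0467 and 5.61e-06).

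In class I antigen presentation, 2 of 15 tested genes rose and 3 fell at 3000 µM and 24 h, and 5 rose and 2 fell at 48 h. The shares of all probe sets that rose and fell were 17.3% and 14.8% at 24 h, and 19.5% and 19.9% at 48 h. Tap1 and Tap2 encode the transporter that carries peptides into the endoplasmic reticulum and alternate with Psmb8 and Psmb9 along chromosome 20 in GRCr8. Tap1 rose by 0.61 at 24 h and 0.97 at 48 h (adjusted p = 0.00053 and 4.58e-07), and Tap2 by 0.40 at 48 h (adjusted p = 0.0321, against 0.296 at 24 h). Calr, a chaperone of class I loading, rose by 0.51 at 48 h. The class I heavy chain genes RT1-S3 and RT1-CE5 changed by -0.55 and -0.57 at 24 h and by -0.72 and -0.50 at 48 h, although genes of this family are close in sequence and their probe sets may read each other. At 300 µM RT1-S3 passed at 48 h (-0.46, adjusted p = 0.00566).

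Of 14 constitutive proteasome genes tested, 5 rose and 2 fell at 3000 µM and 24 h, and 10 rose and 1 fell at 48 h, with medians of 0.10 and 0.22, where 17.3% and 14.8% of all probe sets rose and fell at 24 h and 19.5% and 19.9% at 48 h. Psma7 rose most at 48 h, by 0.56. The falls at 24 h, Psma6 and the assembly factor Pomp at -0.16 and -0.15, and that of Psma3 at 48 h, -0.19, did not pass with array medians centred. Among 7 tested chemokines, Cxcl12 and Ccl20 fell at 24 h (-0.64 and -0.69, to means under the filter) and Cxcl11 rose at 48 h by 0.83 (adjusted p = 5.11e-08). Cxcl10 and Cxcl11 lie beside Cxcl9 in GRCr8. At 300 µM Cxcl10 and Cxcl11 changed by 0.17 and 0.19 at 24 h and by -0.10 and 0.15 at 48 h, none past the test.

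**Figure D4:**
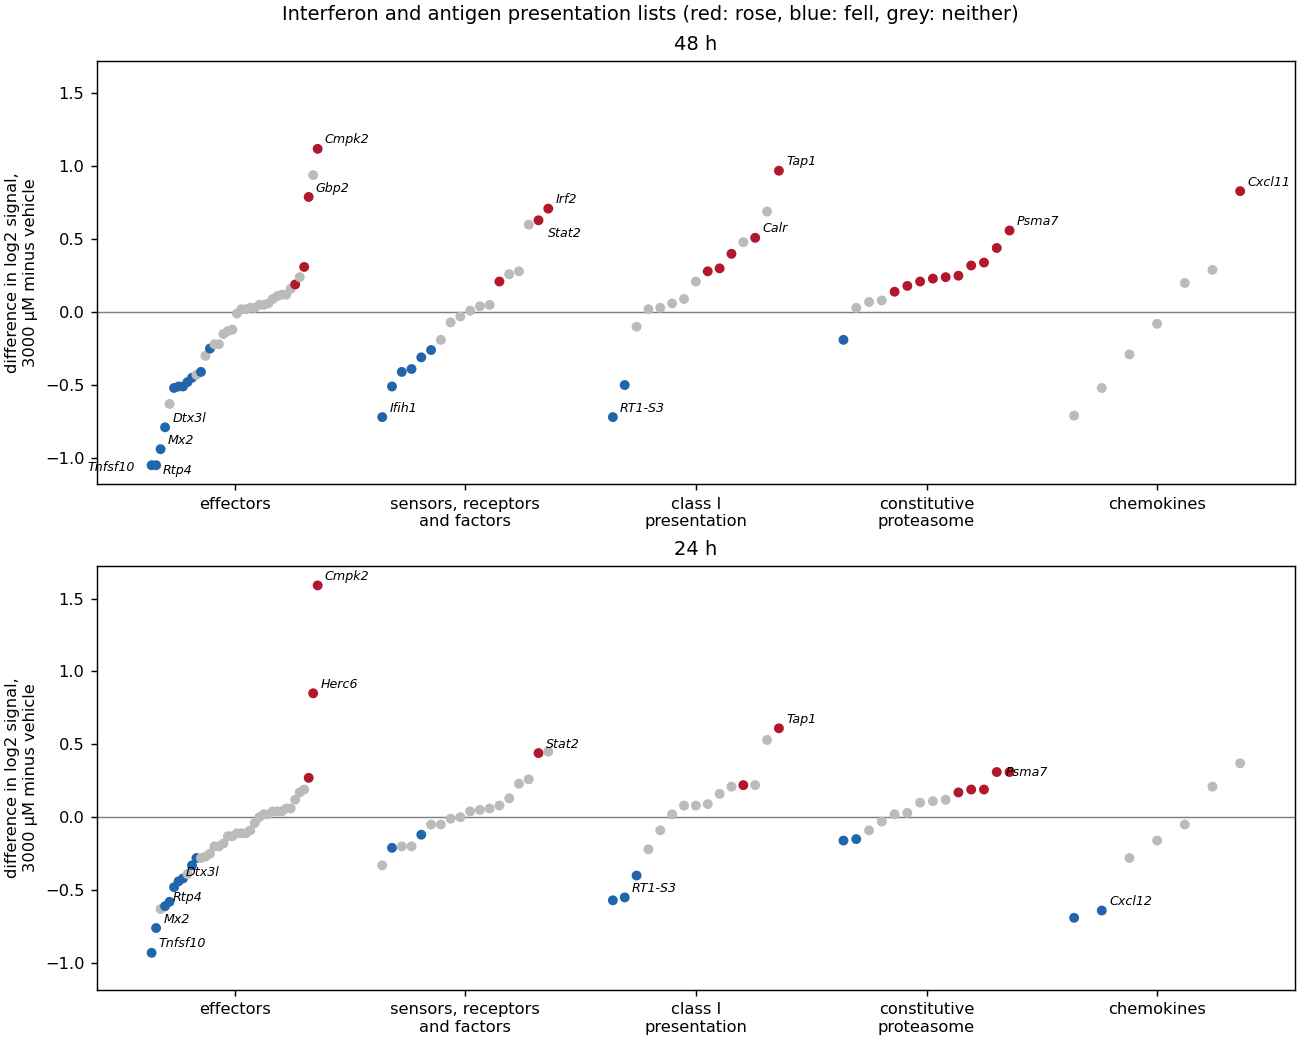
Difference in log2 signal, 3000 µM minus vehicle, of every tested gene of 5 lists at 48 h (top) and 24 h (bottom), sorted within each list. Red genes rose, blue genes fell and grey genes did not pass, and among the effectors falls outnumber rises, 11 to 4 at 48 h and 9 to 3 at 24 h.

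Markers of other cell types moved with the 3000 µM groups in part. Of 9 tested macrophage markers Cd68 rose by 0.54 at 24 h and 0.80 at 48 h and Lyz2 by 0.20 and 0.29, while C1qa and Cd14 fell at 24 h (log2 changes -0.81 and -0.16). C1qb was called lower at 24 h but reached the filter in vehicle at 24 h alone (7.16 at 3000 µM against 8.78 in vehicle). The summed signal of 11 macrophage markers was 26470 to 28700 at 3000 µM against 27950 to 29030 in vehicle at 24 h, and 23120 to 26070 against 19740 to 23160 at 48 h. The summed endothelial signal was 721.6 to 1321 against 986.4 to 1521 at 48 h, with 1 of 6 markers reaching the filter. Cd4, the only gene of the lymphocyte list to pass the filter, reached it at 300 µM and 24 h alone, with 7.44 at 3000 µM against 8.51 in vehicle at 24 h and 7.46 against 8.48 at 48 h. By itself Cd4 does not identify the cells that its signal came from. Of 9 hepatocyte markers 7 fell at 24 h and 4 at 48 h, where 14.8% and 19.9% of all probe sets fell. The largest of these falls were those of Fgb at 24 h and Apob at 48 h (-0.55 and -0.89). The part of these shifts in the changes of the 8 genes was not tested.

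Within groups, wells that were high in Psmb9 tended to be high in Psmb8 and in Psmb10. Over 30 wells, deviations from group means correlated for Psmb9 and Psmb10 (Pearson r = 0.80, adjusted permutation p = 0.00588, Spearman rho = 0.67, adjusted permutation p = 0.0174) and for Psmb8 and Psmb9 (r = 0.76, adjusted permutation p = 0.0242, rho = 0.64, adjusted permutation p = 0.0174). These were the only 2 of 28 pairs to pass by the main settings. Without the 2 wells farthest out, r was 0.66 and 0.60. Without the 2 arrays that stood apart, 1 of which is the low well 4 at 3000 µM, Psmb9 with Psmb10 still passed and Psmb8 with Psmb9 did not (r = 0.55, adjusted permutation p = 0.0728). The remaining subunit pair, Psmb8 with Psmb10, had r = 0.57 and rho = 0.32 and did not pass (adjusted permutation p = 0.187 and 0.468). Isg15 and Irf7 had r = 0.59 and rho = 0.44 (adjusted permutation p = 0.0777 and 0.273), and r fell to 0.36 without the 2 farthest wells, 1 of which is vehicle well 5 at 48 h. With array medians centred this pair passed (r = 0.63, adjusted permutation p = 0.0267). So did Rsad2 with Irf1 (r = 0.53, adjusted permutation p = 0.0273) and Psmb9 with Cxcl9 (r = 0.71, adjusted permutation p = 0.0206).

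**Figure D5:**
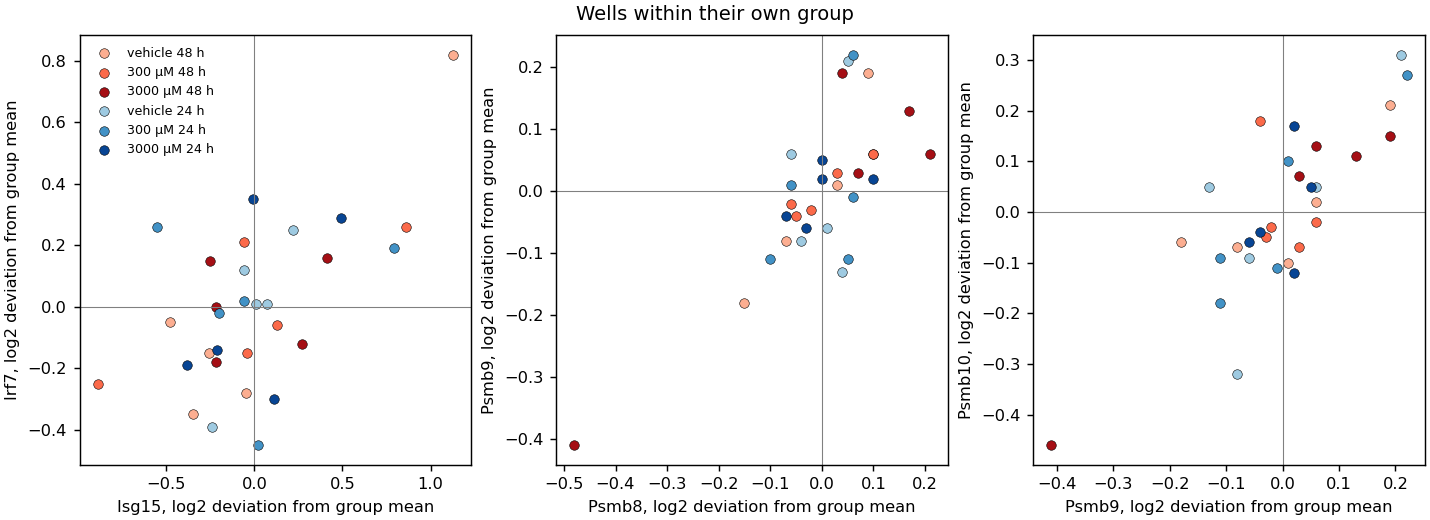
Deviation of each well's log2 signal from its group mean for Irf7 against Isg15 (left), Psmb9 against Psmb8 (middle) and Psmb10 against Psmb9 (right), coloured by group. One vehicle well at 48 h is high in Isg15 and Irf7, and 1 well at 3000 µM and 48 h is low in the 3 proteasome subunits.

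Vehicle well 5 at 48 h was the highest of its group in 22 of the 38 tested effectors (57.9%), against 18% of all probe sets tested. Leaving it out left the effector counts at 48 h at 4 higher and 11 lower. In the wells of the other groups this share of the effectors lay between 2.63% and 36.8%. Over all probe sets tested, well 4 of the 3000 µM group at 48 h was the highest of its group in 33.5%. The other wells of that group were so in 13.7% to 19.9%.

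The genes whose signals over the 30 arrays were most like those of each member differed between them. Rsad2 was most like Manba, a lysosomal mannosidase (r = 0.95), Ddit3, the stress factor CHOP (0.943), and Dnase2b (0.941). Isg15 was closest to Ifgga2l1, Rtp4 and Usp18, which removes Isg15 from proteins (0.815, 0.808 and 0.787), and Irf7 to Rtp4, Ifgga2l1 and Cdh1 (0.859, 0.801 and 0.793). Psmb8 and Psmb9 were each other's closest (0.978), and Psmb9 was the closest to Psmb10 (0.9). Cxcl9 was most like Aass, an enzyme of lysine breakdown (0.88), and Cyp2c6v1, a cytochrome P450 (0.877). For Irf1 the highest value was 0.66, with S1pr2. These values describe arrays that share dose groups and carry no test.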

How the data were processed

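The authors deposited 1 linear signal intensity per probe set and array, which the submitters' processing notes tie to MAS5. Versions, targets and detection calls are not given in the sources used here. The mean of each array, without 2% of values at either end, was 1500.6 to 1500.7, so each array had been scaled to a common level. Probe sets were named by the platform annotation: 20826 of 31099 had 1 symbol, 436 several, 9780 none, and 57 were controls. Names come from probe sets with 1 symbol alone, so Psmb6 and the planned ratio of Psmb9 to it were left out.

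Signals were put on the log2 scale with no constant added. Probe sets whose highest group mean reached the median of all values (8.58, a signal of 384) were tested, 16596 in all. limma 3.58.1 in R 4.3.3 fitted 6 group means over 30 arrays (eBayes with trend and robust estimation), with 2-sided tests and Benjamini-Hochberg adjustment within each comparison. An adjusted p under 0.05 was called, and rose or fell refers to that. Ratios used 2-sided exact permutation tests, and co-variation 100000 permutations of wells within groups, 2-sided (Python 3.11.15, SciPy 1.17.1). The code was tested on simulated data. The number of arrays limits the precision.

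Genes named are the 8 members, up to 4 called genes with the largest change per list, direction and comparison with vehicle, the 3 probe sets most like each member, and the constitutive counterparts. Cxcl10, Ifnb1 and Ifng fall outside this rule and were named after their values were seen. Members and lists were chosen with earlier results of these data known. The running numbers in the labels fall into sets of 6 with 1 well per group, used as a block in an alternative alone. Other alternatives were the normalization, a constant of 64, the filter, array weights, the variance model, fits to the compared groups alone and leaving out each well.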

Additional observations from a re-analysis of the deposited data

Results flagged for a closer look

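Of 54 sets of 5 wells screened, 9 probe sets in 6 groups, 6 had a well whose distance to its nearest neighbour was large for the range of its group. Chance gives about 1 in 20 for a single set. The 54 sets share the same 30 arrays and are not independent, so the 6 cannot be tested against that share. Vehicle well 5 at 48 h was high in Isg15, at a log2 signal of 12.09 against 10.48 to 10.91 in the other wells, and in Irf7, at 11.63 against 10.46 to 10.76. Well 4 of the 3000 µM group at 48 h was low in Psmb8, at 12.48 against 13 to 13.16, in Psmb9, at 13.13 against 13.57 to 13.74, and in Psmb10, at 11.49 against 12.02 to 12.1. That array also stood apart in its hybridization controls, and the part of this in the 3 low values was not tested. Well 3 of the 300 µM group at 48 h was high in Psmb10, at 11.73 against 11.47 to 11.52. The effect of 3000 µM on Rsad2 was larger at 48 h than at 24 h by 0.97 on the log2 scale, by a test of that difference. This call was lost in 15 of 30 alternative fits, as given above.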

How the results depend on the processing

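Over 99 member comparisons and 2160 alternative fits, 2055 kept direction and side of the threshold, 75 lost a call, 30 gained one and none reversed; 82 comparisons kept their result in every fit. Counts of changed members and lists under the alternatives were added after seeing the data. The 1 member lower at 300 µM and 48 h became 0 with quantile normalization, medians centred, no filter, eBayes without trend and robust estimation, or the compared groups alone (0 to 1 leaving out 1 well). The 2 lower against 300 µM at 24 h became 1 with medians centred or no filter. Leaving out 1 well, members lower were 1 to 2 at 3000 µM against vehicle and against 300 µM at 24 h, and 0 to 1 against 300 µM at 48 h.

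With medians centred, changed probe sets were 227 rather than 496 at 300 µM and 24 h, 124 rather than 255 at 48 h, 736 rather than 1195 for vehicle over time (269 higher and 467 lower rather than 672 and 523), 549 rather than 862 for 300 µM over time (224 and 325 rather than 475 and 387), and 234 rather than 688 for the difference of 3000 µM effects (42 and 192 rather than 229 and 459). The 255 became 615 with array weights, 467 without the 2 arrays that stood apart and 482 with the compared groups alone. The compared groups alone gave 1186 rather than 2316 for 3000 µM over time and 319 for the difference of 3000 µM effects, for which no filter gave 362. The difference of 300 µM effects gave 1 with array weights, 1 without the 2 arrays and 3 with its own groups, rather than 0. Leaving out 1 well gave 325 to 444 at 300 µM and 24 h, 168 to 266 at 48 h, 410 to 976 for the difference of 3000 µM effects and 0 to 1 for that of 300 µM.

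For the ratios, quantile normalization gave Psmb8 minus Psmb5 0.72 at 3000 µM and 48 h (exact adjusted p = 0.0191) and Psmb10 minus Psmb7 0.28 at 24 h (0.0714). The mean of all tested probe sets per gene gave 0.53 and 0.76 for Psmb8 minus Psmb5 against 300 µM at 24 h and 48 h. For Psmb10 minus Psmb7 it gave 0.34 at 3000 µM and 24 h and 0.21 at 300 µM and 48 h. None of these passed the threshold (0.0571 to 0.0952). The 2 Psmb10 differences were the same as by the main settings, and each adjusted p depends on all 12 tests. Leaving out 1 well, Psmb8 minus Psmb5 ranged over -0.19 to -0.12 at 300 µM and 48 h and 0.60 to 0.85 at 3000 µM and 48 h. Psmb10 minus Psmb7 ranged over 0.29 to 0.42 at 3000 µM and 24 h, 0.26 to 0.52 at 48 h, 0.16 to 0.25 at 300 µM and 48 h and 0.04 to 0.30 between doses at 48 h. Pairs of co-varying members were 5 with medians centred and 1 without the 2 arrays, rather than 2. The cause of these shifts was not tested.

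The running numbers did not pair the wells: same-set arrays had a median r of 0.003 (-0.064 to 0.094), and 5 of 30 arrays correlated best with their own set. With the sets as a replicate block, changed probe sets were 466 at 300 µM and 24 h, 284 at 48 h, 5344 and 6509 at 3000 µM and 610 for the difference of 3000 µM effects, and 1 of 99 member results changed, Cxcl9 at 300 µM over time (-0.37, adjusted p = 0.0357, against 0.0505).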
